A study of Mus musculus with 13 samples.

Results

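Named pseudogenes are genes whose mouse symbol ends in -ps, with or without a number, in most cases after the symbol of a parent gene, such as Rpl18-ps2 beside Rpl18. The parent was found in the files by its symbol for 154 of the members described here and by a synonym for 13, and 59 have none. They were selected on the RNA of mouse embryonic stem (ES) cells: a member has a symbol that ends in -ps or in -ps and digits, and a mean normalized signal of at least 0.5 over 3 WT libraries or over 3 Dnmt1_null libraries. Of 26797 genes in these files, 529 have such a symbol, and 226 passed the threshold and are described here. Of the 226, 205 passed in both groups, 12 in WT only and 9 in Dnmt1_null only. Because the signal of these 6 libraries chose the members, their values in these libraries are a description: no p-value of a member is given, and where members past a threshold of the fit over all genes are counted, the same share of all genes stands beside and nothing is read from the count. For a member that passed in 1 group only, the choice itself favors a difference between the groups. The parent genes were taken through their copies, not by their own values, and were tested, although reads may be exchanged between copy and parent.

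The study asked how methylated promoters are kept silent in ES cells. WT cells are the AinV15 line, untreated, with 3 replicate libraries, and Dnmt1_null cells are the D1-null strain that carries the C allele of Dnmt1, the maintenance DNA methyltransferase, untreated, also with 3 libraries. A table of counts holds 4 further libraries without replicates: 1 named WT, 1 named Dnmt1 and 1 each of cells with the fusions dCas9-OGA or dCas9-OGA-D242A. Only their column names give the group of the first 2, which are taken here as further WT and Dnmt1-null libraries. The dCas9-OGA fusion joins a Cas9 that does not cut to OGA, an enzyme that removes O-GlcNAc from proteins, and D242A is a substitution in that enzyme that inactivates it. Both fusions were placed in the AinV15 line under a doxycycline-inducible promoter together with 4 guide RNAs against IAP retrotransposons, and were induced with 1 µg/mL doxycycline for 48 h. By the labels, cells grew on gelatin-coated plates with leukemia inhibitory factor and serum, and polyadenylated RNA was sequenced. WT and Dnmt1_null are different lines, so line and genotype cannot be told apart. Nothing in the labels says that the replicates were separate cultures, so p-values measure the spread between these samples, which may be technical. Whole reads per replicate library ranged from 26846275 to 37112247, and the single libraries held 18693531 (Dnmt1-null), 25097983 (WT), 24955180 (dCas9-OGA) and 24828078 (dCas9-OGA-D242A) counts.

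A processed pseudogene arises when the mRNA of a gene is copied back into DNA by the enzymes of LINE retrotransposons and inserted elsewhere in the genome. The copy lacks introns and usually a promoter of its own, so it is transcribed only where its new surroundings allow it. Genes that are transcribed heavily in the germline, among them those of ribosomal proteins, have left many such copies, whereas an unprocessed pseudogene is a duplicated gene that keeps its introns. The young copies are nearly identical to the mRNA of the parent, and a short read from one can be assigned to the other. Reads shared with a near-identical copy are therefore uncertain for each member below that has such a copy.

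The symbols did not all name processed copies. In the GENCODE vM21 annotation of GRCm38, 167 of the 226 members (73.9%) were processed pseudogenes and 41 were unprocessed. A further 11 were annotated as protein-coding, among them Ftl1-ps1, the 3 Zscan4 pseudogenes and Dnmt3c-ps, which that annotation names Dnmt3c, 3 as transcribed unitary pseudogenes, 1 as a polymorphic pseudogene and 1 as a lincRNA. The other 2, Cbx3-ps2 and Cbx3-ps5, were found in the files but not in that annotation. The annotated exons formed 1 block in 173 members, 162 of which were processed. By class of parent, 81 derived from ribosomal protein genes, 6 from the histone and high mobility group genes H3f3a and Hmgb1, 5 from genes of energy metabolism, 4 from translation factor genes, 2 from the ferritin light chain gene and 128 from others, which include further genes of chromatin proteins such as Cbx3 and Smarca5. Chromosome X held 26 members.

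The threshold passed close to several of them. Just inside were Xlr4e-ps, with mean signals of 0.134 in WT and 0.506 in Dnmt1_null, Obox4-ps14, with 0.517 and 0.502, and Alms1-ps1, with 0.317 and 0.518. Just outside were Obox4-ps36, with 0.496 and 0.396, Rpl31-ps10, with 0.480 and 0.325, and Rps24-ps2, with 0.342 and 0.467. At this level 1 read is worth between 0.0260 and 0.0368 of signal, so these members rest on few reads in each library.

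Dnmt1 checked the labels. Its signal was 308, 352 and 347 in the WT libraries and 73.6, 75.4 and 77.6 in the Dnmt1_null libraries. The groups did not overlap, and Dnmt1 fell by 2.14 on the log2 scale (limma, SE 0.05, adjusted p = 1.1e-20). Part of the transcript was still counted in Dnmt1_null cells. In the single libraries Dnmt1 stood at 61.9 cpm (counts scaled to library size, CPM) in Dnmt1-null cells and at 460.2, 549 and 376 cpm in WT, dCas9-OGA and dCas9-OGA-D242A cells, with the labelled null lowest.

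Markers of other cells differed between the groups. ES cell markers (Pou5f1, Nanog, Zfp42 and Esrrb, 4 of 5 listed; Sox2 is not among the genes of these files) summed to signals of 2586, 2585 and 2666 in WT and 2486, 2406 and 2457 in Dnmt1_null. These sums join opposite movements. The means of Esrrb and Pou5f1 were 799 and 306 in WT and 585 and 272 in Dnmt1_null. Those of Nanog and Zfp42 were 706 and 800 in WT and 747 and 846 in Dnmt1_null. In none of these genes did the groups overlap. Fibroblast markers (6 of 6, Col1a1 the most abundant, none at 0) summed to 1249.5, 1481 and 1028 in WT and 250.3, 265 and 236 in Dnmt1_null. The WT replicates thus stood above every Dnmt1_null replicate in fibroblast markers. The same 6 genes summed to only 12.2, 28.2, 18.0 and 38.0 cpm in the single Dnmt1-null, WT, dCas9-OGA and dCas9-OGA-D242A libraries. Primitive endoderm markers (4 of 4, Gata6 the most abundant in WT, none at 0) summed to 79.0, 79.7 and 74.8 in WT and 105, 96.6 and 104 in Dnmt1_null, and trophoblast markers (3 of 3, Gata3 the most abundant, Elf5 at 0 in WT replicate 3) to 2.85, 3.53 and 2.77 in WT and 6.30, 7.10 and 7.33 in Dnmt1_null. These sums move with the groups in every comparison of WT and Dnmt1_null replicates below, and their part in the results was not tested. In bulk RNA, fewer cells of a type and less RNA per cell cannot be told apart.

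The members took between 1.35% and 1.47% of the reads of each replicate library, and those of ribosomal protein parents took between 74.1% and 75.9% of the members' reads. The 10 members with the highest mean signal were Rpl3-ps1, Rps10-ps2, Rpl34-ps1, Tpt1-ps3, Rpl23a-ps3, Eif4a-ps4, Rpl19-ps11, Rps15a-ps7, Rpl7a-ps11 and Rpl5-ps1. Of these, 8 derive from ribosomal protein genes, Tpt1-ps3 from the gene of the translationally controlled tumor protein, and Eif4a-ps4 from that of an RNA helicase that opens mRNA for the ribosome. Together they held 38.8% of the members' reads in WT. Rpl3-ps1 had the highest signal, at 964, 926 and 913 in WT and 965, 899.5 and 877 in Dnmt1_null. Its libraries overlapped between the groups, as did those of 3 of the 10 in all. Rps10-ps2 gave 627, 636 and 589.9 in WT and 722, 712 and 712 in Dnmt1_null, all of the latter above the former. Rpl34-ps1 gave 622, 635 and 635 in WT and 581, 577 and 460.3 in Dnmt1_null, all of the latter below the former.

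Genes of different length can be compared per kb of annotated exon. Of the 10 highest members, 9 have a parent in the files, and all 9 stood above it in WT on this scale. Their choice by high signal favors this: over all pairs with a value, 60 of 163 members stood above the parent. Rpl34-ps1 had 1781 of signal per kb against 44.3 for Rpl34, Rpl23a-ps3 had 1078 against 45.0 for Rpl23a, and Rpl3-ps1 had 772 against 306 for Rpl3. The annotated exons of a parent include those of all its transcripts, which lowers its value per kb, whereas a processed copy is a single block. These 10 are also hard to tell from other places in the genome. Of the 31-base words in their sequence, between 0% and 20.8% occurred only once in the genome.

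Between Dnmt1_null and WT, values are compared on the log2(signal + 0.5) scale, which understates the differences of genes of low signal. All 226 members passed the filter on low counts. Of them, 118 (52.2%) had an adjusted p under 0.05 in the limma fit across 17297 genes, where 71.2% of all genes did. Higher in Dnmt1_null were 63 members, beside 35.8% of all genes, and lower were 55, beside 35.4%. In 118 members the 3 libraries of one group all stood above those of the other, beside 73.3% of all genes and 10% by chance. The median member was at 0.03, beside 0.01 over all genes. A difference of at least 2-fold with an adjusted p under 0.05 was found for 15 members (6 higher and 9 lower), beside 13.1% of all genes (634 higher and 1627 lower). Nothing is read from these shares, since the same libraries chose the members. The number past 2-fold depended on the method, with 26 under edgeR and 26 under DESeq2. No share of all genes past 2-fold is given for these methods, and nothing is read from these numbers.

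**Figure D1:**
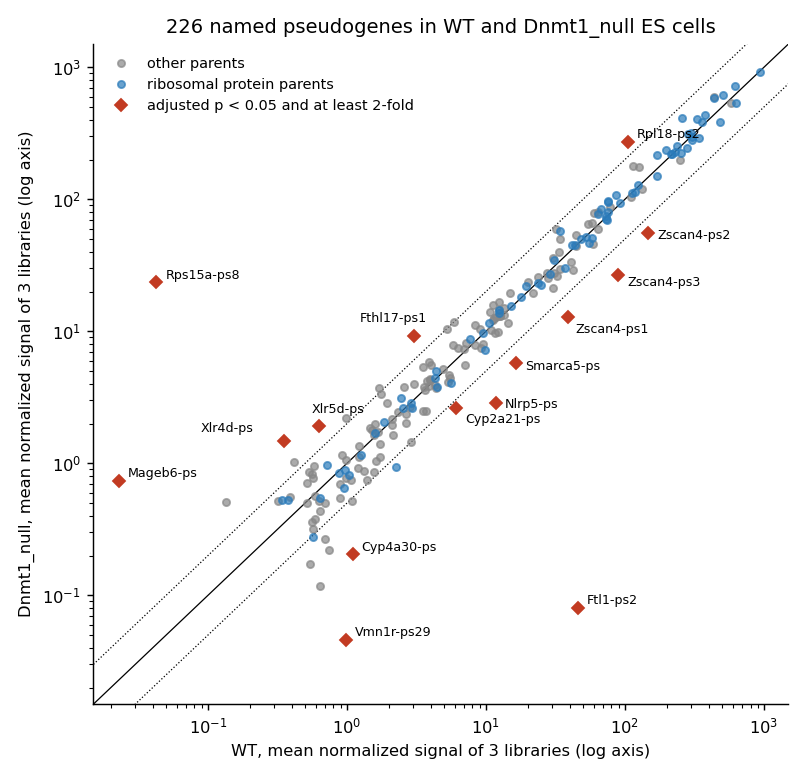
Mean normalized signal of each of the 226 named pseudogenes in 3 WT libraries (x axis, log scale) and 3 Dnmt1_null libraries (y axis, log scale); blue points have ribosomal protein parents, red diamonds are the 15 members with an adjusted p under 0.05 and at least 2-fold on the log2(signal + 0.5) scale, the solid line marks equal signal and the dotted lines 2-fold. Most members lie near the line of equal signal, while Ftl1-ps2 lies far below it and Rps15a-ps8 far above.

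Among the 81 members of ribosomal protein parents, 34 were past an adjusted p of 0.05, where 71.2% of all genes were. Of these, 21 were higher and 13 lower in Dnmt1_null, beside 35.8% and 35.4% of all genes, and the median of the class was 0.04. Of their 35 parents, 9 rose and 4 fell, 22 did not pass the test, and the median was 0.03, while Rpl34 and Rpl30 fell by more than 2-fold. The members that stood apart were Rps15a-ps8 and Rpl18-ps2, the 2 of this class past 2-fold. Rps15a-ps4 had the lowest log2 difference of the class, −0.94, and was singled out after its values were seen.

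Rps15a-ps8 (ENSMUSG00000084403) is a processed copy of Rps15a, which encodes a protein of the small ribosomal subunit, at chr4:53791070-53791456 on the minus strand of GRCm38, and overlaps no other gene. Its signal was 0.0655, 0.0260 and 0.0359 in WT, from 2, 1 and 1 reads, and 25.3, 25.0 and 20.2 in Dnmt1_null, from 727, 761 and 548 reads. All 3 WT libraries were close to 0 and all 3 Dnmt1_null libraries were high. Rps15a-ps8 passed the threshold in Dnmt1_null only, so the choice of members favored this difference. As a description, the ratio of Dnmt1_null to WT reads, scaled for depth, was 572 with a 95% interval of 223 to 2099.7. Such intervals, here and below, cover counting error only. The log2 difference was 5.46. The parent Rps15a had 542, 517 and 492 in WT and 526, 509.7 and 392 in Dnmt1_null, groups that overlapped (log2 −0.13, SE 0.08, limma adjusted p = 0.12). Without Dnmt1_null replicate 3, which had the lowest value, the parent's log2 difference was 0.0034 (limma adjusted p = 0.96), whereas without Dnmt1_null replicate 1 it was −0.21 (adjusted p = 0.015), without WT replicate 3 −0.17 (adjusted p = 0.034) and with replicate numbers as blocks −0.13 (adjusted p = 0.032). Over all alternatives its adjusted p ranged from 0.015 to 0.96, so whether the parent passed the test depended on the libraries and the model. The single libraries, which the choice of members did not use, gave 333 counts for Rps15a-ps8 in Dnmt1-null cells and 1 in WT cells, with 3 in the dCas9-OGA library and 1 in that of its inactive form. There too the Dnmt1-null library alone was high, with a ratio to WT of 434 (95% interval 77.4 to 17200.7).

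Other copies of Rps15a did not share this pattern. Rps15a-ps7 had 498, 467 and 482 in WT and 406, 407 and 333 in Dnmt1_null. Rps15a-ps4 had 2.46, 2.29 and 2.05 in WT and 0.870, 1.15 and 0.811 in Dnmt1_null. Both were lower in all 3 Dnmt1_null libraries. The sum over Rps15a and its 4 copies in the files was 1002 ± 35.9 in WT and 882 ± 118 in Dnmt1_null (SD, n = 3), so Rps15a-ps8 made a small part of the family's signal in either group.

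Rpl18-ps2 (ENSMUSG00000053173) is a processed copy of the gene of a large-subunit protein and overlaps no other gene. Its signal was 103, 109 and 101 in WT and 281, 271 and 263 in Dnmt1_null, with every Dnmt1_null library above every WT library and a log2 difference of 1.38. The parent Rpl18 did not pass the test, at 873 ± 9.72 in WT and 846 ± 21.6 in Dnmt1_null (SD, n = 3; log2 −0.05, SE 0.05, limma adjusted p = 0.44). Rpl18-ps2 thus took 10.7% of the reads of the pair in WT and 24.3% in Dnmt1_null. The single libraries did not show this difference: they held 11405 counts in Dnmt1-null and 14747 in WT cells, a log2 ratio of 0.01, and there Rpl18-ps2 took 85.3% and 82.6% of the pair's counts.

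Among the remaining ribosomal copies, those of Rpl27 were singled out after their values were seen. Rpl27-ps3, at 100% identity to the mRNA of its parent, had 259, 255 and 259 in WT and 422, 409 and 407 in Dnmt1_null, and Rpl27-ps1 had 34.8, 33.2 and 34.9 against 59.4, 57.1 and 57.4. In both, all Dnmt1_null libraries were higher. The parent Rpl27 rose by 0.56 (SE 0.05, limma adjusted p = 1.1e-10), from 124 ± 1.75 to 183 ± 1.81. The single Dnmt1-null and WT libraries held too few counts of the copies to compare: Rpl27-ps3 had 2 and 0 counts, Rpl27-ps1 had 1 and 0, and Rpl27 had 1433 and 1756, a log2 ratio of 0.09. None of the 31-base words of Rpl27-ps3 occurs only once in the genome, so reads within the copied part cannot be assigned to the copy or the parent by sequence. The parents Rpl34 and Rpl30, the latter named after its values were seen, fell by 1.498 (SE 0.07, limma adjusted p = 8.6e-16) and by 1.33 (SE 0.05, adjusted p = 1.9e-16), whereas the log2 differences of their copies, also named after values were seen, were smaller in size: those of Rpl34-ps1 and Rpl34-ps2 were −0.23 and −0.45, and those of Rpl30-ps1, Rpl30-ps8, Rpl30-ps9 and Rpl30-ps10 were −0.14, −0.19, −0.21 and −0.19.

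The ferritin light chain forms part of the shell in which cells store iron. Its gene Ftl1 had a signal of 181, 193 and 167 in WT and 651, 635 and 654 in Dnmt1_null. It rose by 1.84 (SE 0.05, limma adjusted p = 2.3e-19), with no overlap. The processed copy Ftl1-ps2 (ENSMUSG00000096755, chr10:130592157-130592705, minus strand, which shares an exon with the gene model Gm26445) had 43.9, 44.2 and 49.5 in WT and 0.0696, 0.0986 and 0.0737 in Dnmt1_null. The last values come from 2, 3 and 2 reads against 1342, 1702 and 1377 in WT. Every WT library was high and every Dnmt1_null library close to 0, with a ratio of WT to Dnmt1_null reads of 562 (95% interval 273 to 1399.8) and a log2 difference of −6.32. Ftl1-ps2 passed the threshold in WT only, so the choice of members favored this difference. Ftl1-ps1, annotated as protein-coding and 99.6% identical to the parent's mRNA, had 254, 253 and 238 in WT and 212, 190.3 and 196 in Dnmt1_null, also without overlap. Summed over the 3 genes, the signal was 474 ± 18.0 in WT and 846 ± 18.7 in Dnmt1_null (SD, n = 3), a ratio of 1.78.

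The single libraries divided these reads otherwise. Ftl1-ps2 had 10 counts in Dnmt1-null cells and 4345 in WT cells, with 5124 in the dCas9-OGA library and 5418 in that of its inactive form, so that Dnmt1-null was again low and the other 3 libraries high. The ratio of WT to Dnmt1-null was 333 (95% interval 181 to 695). Ftl1-ps1, named for this comparison after its values were seen, had 3934 counts in Dnmt1-null cells and 24, 26 and 26 in the others. The parent Ftl1 had 42 counts in Dnmt1-null and 58 in WT cells. The family sums were close, at 209.7 cpm in Dnmt1-null and 178.6 cpm in WT cells. In these libraries nearly all counts of the family thus stood on Ftl1-ps1 in the Dnmt1-null library and on Ftl1-ps2 in the others.

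The histone and high mobility group members were copies of H3f3a, which encodes histone H3.3, and of Hmgb1, a protein that bends DNA. All 6 were past an adjusted p of 0.05 and lower in Dnmt1_null, with log2 differences between −0.50 and −0.24, where 35.4% of all genes were lower. The 6 derive from only 2 parents and are not independent, and they do not stand for copies of chromatin genes at large: Cbx3-ps6, named after its values were seen, had a mean of 54.5 in WT and 65.0 in Dnmt1_null. H3f3a-ps2 had 31.6, 29.5 and 29.2 in WT and 23.7, 21.2 and 18.9 in Dnmt1_null, and Hmgb1-ps2 had 60.8, 56.3 and 60.7 against 46.5, 45.0 and 46.3. Both parents fell, H3f3a by 0.49 (SE 0.05, limma adjusted p = 1.7e-08) and Hmgb1 by 0.22 (SE 0.05, adjusted p = 0.00082). The examples of this class were chosen after their values were seen, as were those of the next.

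Of the 5 members from genes of energy metabolism, 1 was higher and 2 were lower past the same threshold, beside 35.8% and 35.4% of all genes. Pgam1-ps2, a copy of the gene of phosphoglycerate mutase, a glycolytic enzyme, had 60.03, 66.4 and 65.7 in WT and 80.2, 77.5 and 81.8 in Dnmt1_null, all higher, and Pgam1 rose by 0.39 (SE 0.05, limma adjusted p = 2.4e-07). Atp5l-ps1, a copy of a gene of a subunit of the ATP synthase, had 13.8, 14.4 and 15.2 in WT and 11.6, 11.6 and 11.6 in Dnmt1_null, all lower, and Atp5l fell by 0.26 (SE 0.08, adjusted p = 0.0054). Of the 4 members from translation factor genes only Eif4a-ps4 was past the threshold, which 71.2% of all genes were, with 455, 429 and 435 in WT and 607, 586 and 594 in Dnmt1_null, every Dnmt1_null library higher.

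Among the 128 members of other parents, 72 were past the threshold, 40 higher and 32 lower, and 12 of them past 2-fold, where 71.2% and 13.1% of all genes were. Smarca5-ps (chr4:145464204-145467420, plus strand, transcribed processed pseudogene) is a copy of Smarca5, the ATPase of ISWI chromatin remodeling complexes. It had 17.4, 14.6 and 17.0 in WT and 6.13, 6.38 and 4.86 in Dnmt1_null, all of the latter lower, a log2 difference of −1.43. Smarca5 itself rose by 0.28 (SE 0.06, limma adjusted p = 8.4e-05), from 309 ± 23.3 to 375 ± 13.8 (SD, n = 3). In the single libraries Smarca5-ps went the other way, with 302 counts in Dnmt1-null and 185 in WT cells, a log2 ratio of 1.04. There Smarca5 had 3079 counts against 1601, a log2 ratio of 1.32, so copy and parent were both higher in Dnmt1-null. For Smarca5-ps, with dCas9-OGA there were 448 counts, and with its inactive form 528.

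The Zscan4 genes encode zinc finger proteins of the embryo at the time its genome is first transcribed and appear in a few cells of an ES culture. Zscan4-ps2 had 151, 144 and 145 in WT and 54.1, 59.5 and 52.1 in Dnmt1_null. Zscan4-ps3 had 92.2, 87.9 and 87.4 against 25.8, 29.8 and 23.9, and Zscan4-ps1 had 38.7, 40.9 and 37.3 against 11.5, 15.3 and 11.9. All 3 were lower in every Dnmt1_null library, with log2 differences of −1.40, −1.74 and −1.57. The genes Zscan4a to Zscan4f, brought in after the values of the members were seen, had log2 differences from −1.83 for Zscan4a to −1.33 for Zscan4d, given without a test. In the annotation Zscan4a is an unprocessed pseudogene, and Zscan4b to Zscan4f are protein-coding. The 9 genes summed to 901.5 ± 16.8 in WT and 318 ± 29.0 in Dnmt1_null (SD, n = 3). In the single libraries they had 583 counts in WT and 17 in Dnmt1-null cells, and 12 with dCas9-OGA and 48 with its inactive form, so that the single WT library stood above the others. Of the 31-base words of Zscan4-ps2 only 2.49% occur once in the genome.

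Nlrp5-ps (chr7:14530652-14622479, minus strand, transcribed and unprocessed) is a pseudogene of Nlrp5, a gene that the oocyte needs for early development of the embryo. It had 10.97, 11.5 and 12.8 in WT and 2.12, 3.62 and 2.84 in Dnmt1_null, all lower. In the single libraries it had 2 counts in Dnmt1-null and 3 in WT cells, too few to compare. It shares an exon on the same strand with the pheromone receptor gene Vmn1r90, whose reads cannot be separated there. Nlrp5 was too low to test, with 4 reads in all 3 WT libraries and 9 in all 3 Dnmt1_null libraries. Further unprocessed members past 2-fold and lower were copies of cytochrome P450 and pheromone receptor genes. Cyp2a21-ps had 6.16, 5.84 and 6.39 in WT and 2.44, 3.12 and 2.25 in Dnmt1_null, and Cyp4a30-ps had 1.47, 1.14 and 0.682 against 0.209, 0.296 and 0.111. Vmn1r-ps29 had 0.9497, 0.701 and 1.29 against 0.0348, 0.0657 and 0.0368, or 92 reads against 4, a ratio of WT to Dnmt1_null of 20.5 (95% interval 7.73 to 76.8). In each of these 3 the groups did not overlap, but Cyp4a30-ps and Vmn1r-ps29 passed the threshold in WT only, which favored a difference.

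On chromosome X, 19 of 26 members were past the threshold (9 higher and 10 lower), where 508 of all 712 X-linked genes tested were. The Xlr genes form an X-linked cluster of families expressed in lymphocytes and germ cells. All 5 Xlr members were past the threshold and higher in Dnmt1_null, where 35.8% of all genes were, but they come from 1 cluster of similar genes and are not independent. Xlr4d-ps had 0.229, 0.467 and 0.359 in WT and 1.497, 1.68 and 1.25 in Dnmt1_null, and Xlr5d-ps had 0.622, 0.519 and 0.754 against 2.44, 1.81 and 1.55. Their log2 differences were 1.22 and 1.09, and neither pair of groups overlapped. Xlr4d-ps passed the threshold in Dnmt1_null only, which favored its difference. Xlr5a, the parent matched to Xlr5d-ps, rose by 1.04 (SE 0.08, limma adjusted p = 1.2e-11). Xlr3a and Xlr4a, brought in after the members' values were seen and given without a test, had log2 differences of 1.30 and 1.55. In every single library Xlr4d-ps and Xlr5d-ps had 0 counts, so no difference could be seen there. Xlr3a, Xlr4a and Xlr5a had 283, 55 and 13 counts in the single Dnmt1-null library and 38, 10 and 0 in the single WT library.

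Fthl17 genes encode X-linked relatives of the ferritin heavy chain. Fthl17-ps1 (chrX:9043727-9044242, plus strand) had 2.98, 2.93 and 3.16 in WT and 8.81, 9.17 and 9.47 in Dnmt1_null, all higher, a log2 difference of 1.45. It had 0 counts in every single library, so no difference could be seen there. Its parent by synonym, Fthl17e, is not the closest gene in sequence (95.8% identity, against 97.7% for Fthl17c), nor is it for Fthl17-ps2 (95.8%, against 96.8% for Fthl17b). Fthl17e rose by 1.89 (SE 0.13, limma adjusted p = 3.1e-12), from 1.15 ± 0.210 to 5.60 ± 0.526 (SD, n = 3). Fthl17-ps2, named after its values were seen, stood the other way, with 1.11, 1.01 and 1.11 in WT and 0.522, 0.592 and 0.442 in Dnmt1_null. The single libraries reversed this, with 16 counts of Fthl17-ps2 in Dnmt1-null and 5 in WT cells, a ratio of 4.17 (95% interval 1.46 to 14.6). Mageb6-ps, a copy from a family of genes expressed mainly in testis and tumors, had 1, 0 and 1 reads in WT and 18, 28 and 18 in Dnmt1_null, where every library was higher. The ratio of Dnmt1_null to WT was 35.9 (95% interval 9.55 to 303), in a member that passed the threshold in Dnmt1_null only and whose difference the choice thus favored. Of the 6 members named for Obox4, an oocyte homeobox gene, only Obox4-ps35 was past the threshold, which 71.2% of all genes were. It was named after its values were seen and had 0.851, 0.727 and 0.503 in WT and 0.0696, 0.362 and 0.368 in Dnmt1_null, all lower, but it passed the signal threshold in WT only, which favored a difference.

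**Figure D2:**
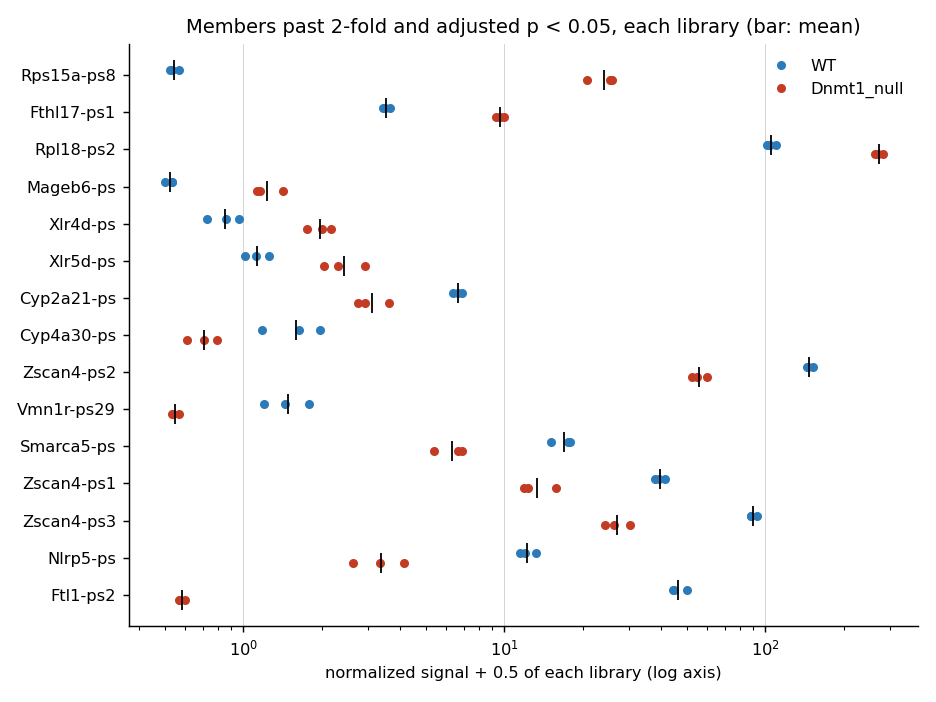
Normalized signal + 0.5 (x axis, log scale) of the 15 members with an adjusted p under 0.05 and at least 2-fold, in each of 3 WT (blue) and 3 Dnmt1_null (red) libraries; the black bar is the mean of the group. In every member shown the libraries of the 2 groups do not overlap, which the choice of members past the threshold favors, and Rps15a-ps8 and Ftl1-ps2 are the farthest apart.

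A tested parent was matched to 165 members, which share 107 such parents. Of these parents, 67 (62.6%) passed the test, 47 higher and 20 lower, beside 71.2% of all genes, and their median was 0.10. Past 2-fold were Ftl1, Fthl17e and Xlr5a, which rose, and Rpl34, Rpl30 and Zfp422, which fell; Rpl30 and Zfp422 are named because they passed 2-fold. The difference of a member lay within 0.5 of that of its parent on the log2 scale in 147 of the 165 pairs and was at least 1 away in 14, with a median distance of 0.10. In 62 pairs both were past the threshold, and 58 of these had the same sign. The 4 of opposite sign were Ftl1-ps1, Ftl1-ps2, Smarca5-ps and Fthl17-ps2. For Ftl1-ps2 and Fthl17-ps2 the parent is not the closest gene. The closest to Ftl1-ps2 is Ftl1-ps1, which was also lower in Dnmt1_null, with a log2 difference of −0.32. Since a read of the parent can be assigned to the copy, a small distance within a pair can also come from shared reads. The number of reads shared was not measured here. The median size of the difference was 0.24 over the members and 0.21 over the tested parents, which alone favors small distances. No share for pairs of other genes is given here, and the same libraries chose the members, so nothing is read from these counts. Per kb of exon, 60 of 163 members stood above their parent in WT, and the median member had 0.441 of the parent's signal per kb. The median member held 9.54% of the reads of its pair in WT and 9.27% in Dnmt1_null.

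The sequences show how alike the pairs are. Over 165 members with sequence whose parent transcript could be aligned, not all of them in the pairs above, the median identity of the pseudogene to the parent transcript was 98.4% (85.6% to 100%), and the parent was the best match among protein-coding genes in 152. Over 224 members with sequence, a median of 26.5% of the 31-base words occurred once in the genome. In 16 members no word did, in 167 fewer than 50% did, and in 9 at least 90% did. Words were counted in the genome and not in spliced mRNA, so a word that occurs once can still be part of the parent's mRNA. Among members with a matched parent, a median of 65.7% of the words also occurred in the parent's transcripts. In 24 members more than 90% did. No other annotated gene overlapped 203 of the 224, 5 shared an exon on the same strand with another gene, and 15 had a gene on the opposite strand. The labels name a library kit that does not keep strand and the methods name a stranded one, so reads of overlapping genes on opposite strands may not be told apart for these 15.

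The stretches printed are those in which 3 of the members past 2-fold differ from their parents, with the difference in capitals in each. They show differences by which a read within the stretch could be told from one of the parent. Each stretch holds only part of the differences of its pair. For Ftl1-ps2 the closest gene in sequence is Ftl1-ps1 (98.2% identity, against 97.8% for Ftl1), which is not shown. Positions count from the A of the parent's start codon in the coding sequence, and sequences are given 5′ to 3′ on the strand of the gene, from GRCm38. Ftl1-ps2 differs from Ftl1 at 12 of 549 compared bases, and the stretch at chr10:130592480-130592539 (minus strand, exonic, parent positions 167 to 226) holds T207G, G218T and C226T.
Ftl1: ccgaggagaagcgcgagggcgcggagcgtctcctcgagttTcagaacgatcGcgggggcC
Ftl1-ps2: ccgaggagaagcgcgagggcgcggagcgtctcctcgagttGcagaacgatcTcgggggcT
Rps15a-ps8 differs from Rps15a at 30 of 387 compared bases and is 92.2% identical to its mRNA, and 65.0% of its 31-base words occur once. Its stretch at chr4:53791359-53791418 (minus strand, exonic, parent positions 39 to 98) holds 10 of these differences.
Rps15a: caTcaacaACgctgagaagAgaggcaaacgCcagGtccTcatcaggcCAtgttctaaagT
Rps15a-ps8: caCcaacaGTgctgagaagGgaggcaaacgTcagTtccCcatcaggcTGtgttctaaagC
Smarca5-ps differs from Smarca5 at 60 of 3116 compared bases, and its stretch at chr4:145465983-145466042 (plus strand, exonic, parent positions 1713 to 1772) holds C1719A, C1731T, G1746T, C1771T and G1772A.
Smarca5: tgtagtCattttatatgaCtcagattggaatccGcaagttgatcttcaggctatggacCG
Smarca5-ps: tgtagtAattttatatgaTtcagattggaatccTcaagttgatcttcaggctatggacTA

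The levels of the members depended on which of the sets of libraries was read. The replicate libraries and the single libraries were processed and normalized separately. The submitters' notes name HISAT2 for the former and TopHat2 for the dCas9-OGA libraries among the latter. The paper's methods name HISAT2 for transcript analysis without saying which libraries this covers. The sources used here do not name the aligner of the single WT and Dnmt1-null libraries separately. Scaled to the total of each library, the WT level of 109 members (48.2%) differed at least 4-fold between the replicates and the single library, 24 higher and 85 lower in the single library. Among 17071 other genes 2822 (16.5%) did. Within 2-fold were 26.5% of the members and 57.3% of the other genes. With fewer than 10% of words occurring once, 33 of 54 members were at least 4-fold apart, with 10% to 50% it was 60 of 113, and with at least 50% it was 16 of 57.

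In all 4 single libraries 33 members had 0 counts. The most abundant of them in the replicates was Rpl7a-ps11, with a mean signal of 379 in WT, and 7 had a mean WT signal of at least 10. Rps15-ps2 and Hspd1-ps3, singled out after their values were seen, stood the other way, at 0.996 and 35.4 cpm in the WT replicates and 221 and 703 cpm in the single WT library. The members took between 1.14% and 1.24% of the counts of the single libraries, and those of ribosomal protein parents between 41.2% and 49.9% of these. The median share of a member in its pair was 5.18% in the single WT library, but in 36 pairs there the member held more counts than its parent, which was so for 16 pairs in the WT replicates.

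**Figure D3:**
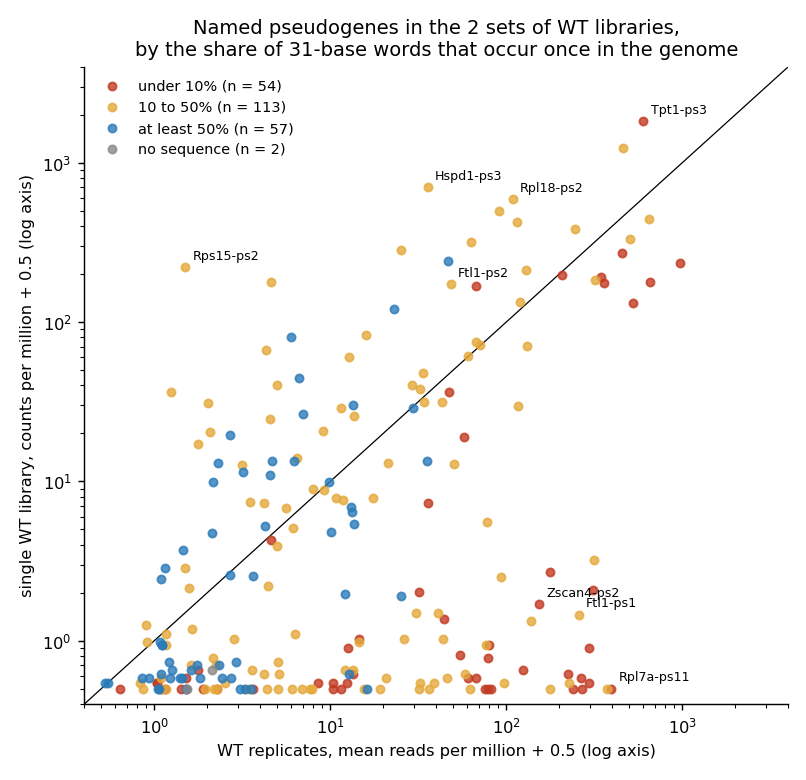
Level of each of the 226 members in the WT replicates (x axis, mean cpm + 0.5, log scale) and in the single WT library (y axis, cpm + 0.5, log scale), which were processed separately; colors give the share of 31-base words of the member that occur once in the genome, and the line marks equal level. Of the 54 members with fewer than 10% of such words 33 lie at least 4-fold apart, all of them below the line.

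The single libraries of Dnmt1-null and WT cells, which the choice of members did not use, have no replicate check. Primitive endoderm markers summed to 10.9 cpm in Dnmt1-null and 33.2 cpm in WT, and trophoblast markers to 2.16 and 12.1 cpm, the opposite order of the replicates, and their part in the results was not tested. With at least 100 counts summed over both, 17 of 99 members (14 higher and 3 lower in Dnmt1-null) were at least 2-fold apart on the log2(cpm + 0.5) scale, where 17.4% of all genes were (1327 higher and 868 lower). The median member was at 0.06, beside −0.07 over all genes. Ftl1-ps2 was the lowest, at −7.42, and Ftl1-ps1 the highest, at 7.14, the latter also the highest of all 12593 genes compared. Of the 97 parents with enough counts, 9 were at least 2-fold apart, beside 17.4% of all genes.

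The comparison of dCas9-OGA with dCas9-OGA-D242A asks what removal of O-GlcNAc near IAP elements does to the members, and rests on 1 library of each. Markers moved between these libraries too: those of primitive endoderm summed to 24.3 cpm with the active and 8.73 cpm with the inactive enzyme (Sox7 had 240 counts against 4), those of ES cells to 3238 and 2330.3 cpm, those of fibroblasts to 18.0 and 38.0 cpm and those of trophoblast to 0.645 and 1.41 cpm. Among the ES cell markers Zfp42 went the other way, at 420 and 494 cpm. The part of these markers in the results was not tested. Of 97 members with at least 100 counts summed, 5 were at least 2-fold apart, where 12.1% of all 12722 genes were (621 higher and 918 lower with the active enzyme), and the median member was at −0.05, beside 0.03 over all genes. Higher with the active enzyme were Hsp25-ps1, a copy of the small heat shock protein gene Hspb1, with 150 counts against 41 (ratio 3.66, 95% interval 2.58 to 5.31), Btnl7-ps, from a family of butyrophilin-like genes, with 195 against 57 (3.43, 2.54 to 4.69), and H2-M6-ps, from the histocompatibility complex, with 204 against 69 (2.96, 2.24 to 3.95). All 3 were named because they were at least 2-fold apart in these libraries, which favors ratios above 2, and the intervals cover counting error only. In the single WT library, without any fusion, these members had 179, 37 and 161 counts, so that for Hsp25-ps1 and H2-M6-ps the dCas9-OGA-D242A library was the low one and for Btnl7-ps the dCas9-OGA library was the high one.

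Lower with the active enzyme were Ak3l2-ps, whose best match is the adenylate kinase gene Ak4, with 207 counts against 503 (ratio 0.412, 95% interval 0.349 to 0.486), and Psmb6-ps2, a copy of a proteasome subunit gene, with 40 against 112 (0.358, 0.243 to 0.517). Psmb6 itself had 5479 against 10933 counts, a log2 ratio of −0.99 beside −1.25 for the copy. In the single WT library Ak3l2-ps had 1182 counts, above both, and Psmb6-ps2 had 51. Of the parents with enough counts, 3 of 96 were at least 2-fold apart, beside 12.1% of all genes. In the replicates, where the members were chosen, Ak3l2-ps had 31.5, 31.8 and 32.1 in WT and 60.5, 57.2 and 62.3 in Dnmt1_null, all of the latter higher. Hsp25-ps1 had 10.8 ± 0.685 and 10.2 ± 1.63 (SD, n = 3), and its groups overlapped.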

How the data were processed

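RNA of mouse ES cells was measured in 3 WT, 3 Dnmt1_null and 4 single libraries. The replicate files hold normalized signal, which the authors made with HISAT2 2.1.0 on mm10 and featureCounts 1.5.0 and deposited after division by a scaled library size. Whole reads were recovered from it, and 100% of the values were whole within 0.01. The joint table holds raw counts per gene as deposited by the authors, who used TopHat2 2.0.11 for the dCas9-OGA libraries, and 0 of its columns were left unused.

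Members and lists were chosen with earlier results of these data known. WT and Dnmt1_null were compared with limma 3.58.1 (trend) on log2(signal + 0.5) after edgeR's filter on low counts, with p-values adjusted over all 17297 genes by the Benjamini-Hochberg method. The design of 2 unpaired groups was assumed, since the labels name none. Single libraries were compared on log2(cpm + 0.5) with normalized library sizes, a minimum of 100 counts and exact binomial 95% intervals. Genes named one by one are the members past 2-fold, the 10 highest by level, those beside the threshold, those 2-fold apart between the dCas9-OGA libraries, the parents of these, other parents past 2-fold, Dnmt1 and those said to be chosen after values were seen. Alternatives were other pseudocounts, other thresholds, left-out libraries, a replicate block, other minimums, edgeR 4.0.16 (12252 genes called) and DESeq2 1.42.0 (11404). The fit was checked on simulated data. Sequences came from GRCm38 with GENCODE vM21, and parents were matched by symbol or synonym and aligned with BLAST+ 2.17.0. Tables were made with pandas 2.3.3 in Python 3.11.15, intervals with SciPy 1.17.1, sequence words with numba 0.67.0 and NumPy 2.4.6, figures with matplotlib 3.10.9 and the fits with R 4.3.3.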

Additional observations from a re-analysis of the deposited data

Results flagged for a closer look

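Members with an adjusted p under 0.05 and no overlap in the replicates, and at least 2-fold apart with at least 100 counts in the single Dnmt1-null and WT libraries, numbered 8, and 4 of them had opposite directions in the sets of libraries, where 470 of 1569 genes that met the same rule (30.0%) did. Ftl1-ps1 had a log2 difference of −0.32 in the replicates and a log2 ratio of 7.14 in the single libraries (3934 counts against 24). Pgam1-ps2 had 0.32 and −1.10 (1496 against 4203). Smarca5-ps had −1.43 and 1.04 (302 against 185). Znf41-ps had −0.52 and 1.96 (93 against 22). The difference between the sets of libraries was not tested.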

How the results depend on the processing

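The number of members past an adjusted p of 0.05 ranged from 97 (DESeq2) to 124 (replicate blocks) over the alternatives. All genes past it numbered 11404 and 12556 of 17297 in these settings. Members also past 2-fold numbered 15, beside 13.1% of all genes. Their number was 25 with a pseudocount of 0.1, 9 with 2, 26 with edgeR and 26 with DESeq2. The share of all genes past 2-fold is not given for these alternatives, so nothing is read from these counts. With 1 library left out at a time the member counts ranged from 104 to 118 and from 14 to 17, and that of parents from 64 to 68. In these fits between 11723 and 12289 of all genes passed an adjusted p of 0.05. With numbered replicates as blocks, 124 members and 73 parents passed, although the correlations of libraries of the same number (0.0740, −0.0164 and 0.0652) do not show that the numbers pair. The log2 difference of the parent Rps15a was −0.13 (limma adjusted p = 0.12), −0.21 without Dnmt1_null replicate 1 (0.015, past the threshold) and 0.0034 without Dnmt1_null replicate 3 (0.96). A threshold of 0.25 gave 259 members and a threshold of 1 gave 193. Between dCas9-OGA and its inactive form, 5 of 97 members were past 2-fold, beside 12.1% of all genes. With a minimum of 20 counts the number was 8 of 121. Between the single Dnmt1-null and WT libraries it was 17 of 99, beside 17.4% of all genes, and ranged from 16 to 21 over the alternatives. No share of all genes is given for these alternatives. The cause of these differences was not tested.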
